A study of Mus musculus with 3 samples.

Results

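Translation initiation and elongation factors are the soluble proteins that bring the ribosome to a start codon and then move it along the message. Their genes were described here in bone-marrow-derived macrophages of the C57BL/6J strain. Members were chosen by name: protein-coding genes whose symbol starts with Eif or Eef and a digit, leaving out those starting with Eif2ak and Eif2s3. The rule found 62 genes among the 55536 gene entries of each library, and it used no measured value. All samples belonged to 1 group of 3 biological replicates from separate biosamples, stimulated for 480 minutes with a dose of 100 ng/mL. As the stimulus, sample descriptions give lipid A, the part of bacterial lipopolysaccharide that Toll-like receptor 4 senses with its partner MD-2, whereas treatment fields give lipoprotein A. The labels give the 3 biosamples the same donor identifier and no age or sex. Untreated cells were not analysed here, and each value is a level after stimulation, not a change. In bulk RNA, fewer cells of a type and less RNA per cell cannot be told apart.

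In textbook outline, eIF4E binds the cap of a message, and the scaffold eIF4G joins it to the helicase eIF4A and, through eIF3, to the small ribosomal subunit. That subunit carries the initiator tRNA on eIF2, and eIF1, eIF1A and eIF5 govern the choice of start codon. eIF2B recharges eIF2 with GTP, eIF5B joins the large subunit, eEF1A then delivers each aminoacyl-tRNA, and eEF2 moves the ribosome forward. In macrophages given bacterial products these factors are known as points of control of cytokine production, through phosphorylation of eIF2 and through the eIF4E-binding proteins that mTOR controls. RNA levels do not report either modification.

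Expected counts summed over gene entries came to 26589042 for replicate 1, 34344922 for replicate 2 and 48356527 for replicate 3. Members took 0.840%, 0.985% and 0.841% of these counts. Levels below are the deposited TPM, transcript abundance scaled to a common total, a per-length scale on which genes can be compared within a library. The 8 macrophage markers were all at 1 TPM or more in every library and summed to 16750 to 21240 TPM. The 11 neutrophil markers summed to 23.2, 422 and 21.6 TPM in replicates 1, 2 and 3, and 2 of them reached 1 TPM in every library. Elane, Mpo, Retnlg and Ly6g among them were at 0 in replicates 1 and 3, and at only 0.37, 0.56, 0.14 and 0.55 TPM in replicate 2. Most of the sum in replicate 2 came from S100a8 (128 TPM), S100a9 (237 TPM) and Ngp (43.3 TPM). No T cell marker (of 3) or B cell marker (of 3) reached 1 TPM in every library. Cd3d and Cd3g were at 0 throughout. The libraries are thus not alike in RNA of the listed neutrophil markers, and replicate 2 is the one that stands apart.

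Most members were expressed, and their levels differed widely. At least 1 TPM in every library, called detected here, was reached by 56 of 62 members (90.3%), beside 42.2% of 21901 protein-coding genes. The median member stood at 39.7 TPM. In the difference of medians on the log2(TPM + 0.1) scale, members lay 1.37 ± 0.111 above the detected protein-coding genes (SD, n = 3), which is 2.59-fold. The same difference from the cytosolic ribosomal protein genes was -3.67 ± 0.131 (SD, n = 3), so members lay 12.7-fold lower. Of the 56 detected members, 7 (12.5%) were within the highest 10% of detected protein-coding genes, 41 within the upper 50% and 5 within the lowest 25%. For the ribosomal protein genes, 77 of 81 detected were within the highest 10%.

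**Figure D1:**
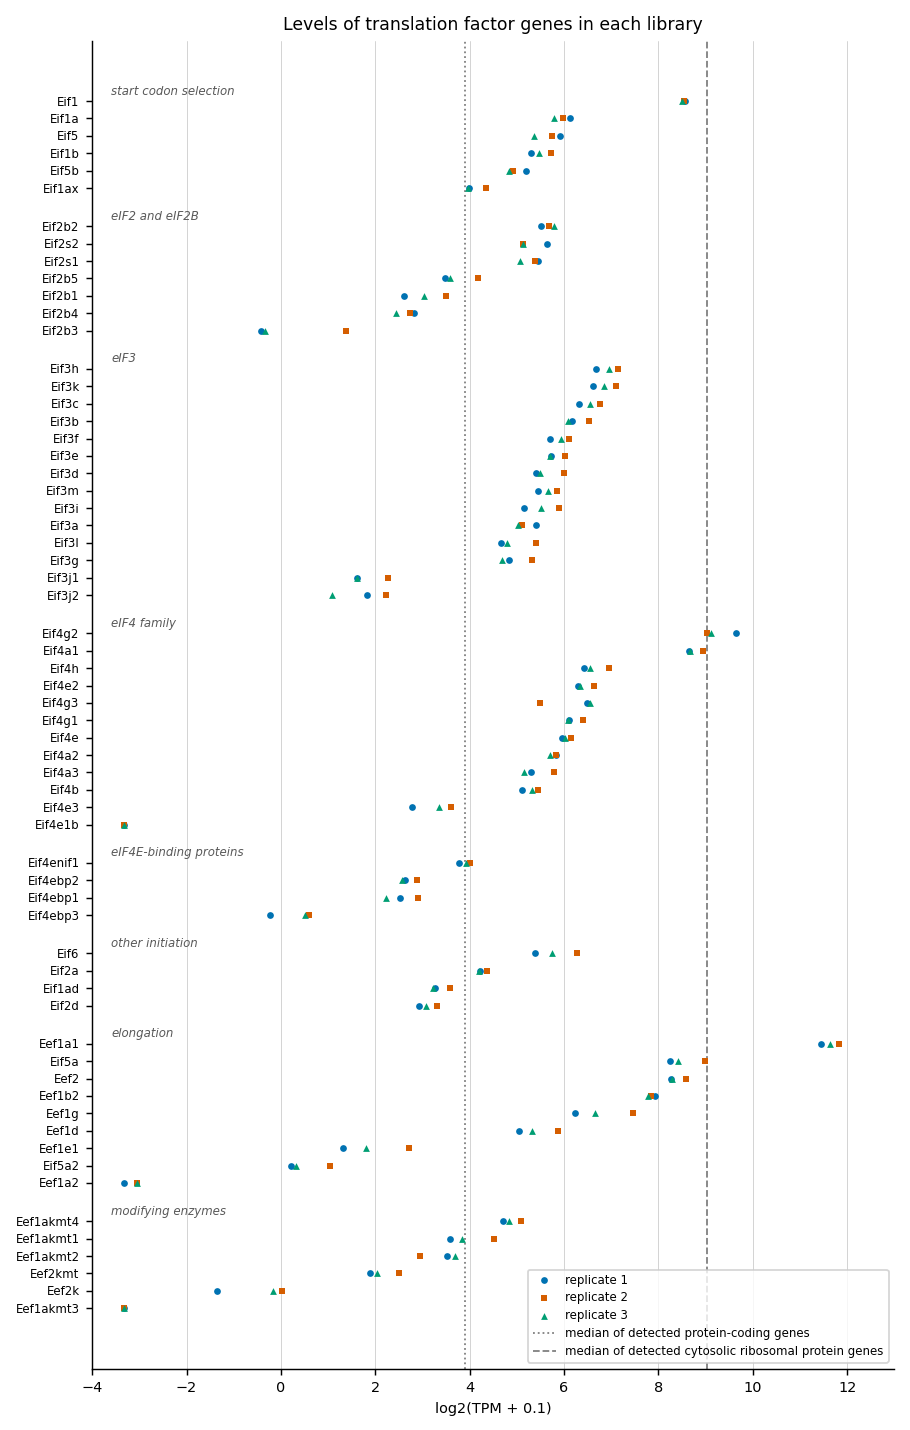
Level of each of the 62 members in each library as log2(TPM + 0.1), grouped by role and ordered by mean within a role. The dotted and dashed lines mark the medians of detected protein-coding and detected ribosomal protein genes, and the elongation factor gene Eef1a1 lies farthest right in all 3 libraries.

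Among the elongation factors, Eef1a1 (ENSMUSG00000037742.14, mm10 chromosome 9, 78478449 to 78489151, minus strand) encodes eEF1A, which carries aminoacyl-tRNA to the ribosome. It stood at 2799, 3653 and 3170 TPM in replicates 1, 2 and 3. By itself it made up 39.5%, 42.9% and 43.4% of all member TPM. It was higher than 99.7% of detected protein-coding genes. Its paralog Eef1a2, the form known from muscle and nerve, had 0, 1 and 1 counts in replicates 1, 2 and 3, or 0, 0.02 and 0.02 TPM. At this depth those counts are at or below the floor of 3 counts used here, equal to 0.0947 TPM in the library where it is highest, and no fold is given.

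Eef2, the translocase (ENSMUSG00000034994.10, chromosome 10, 81176631 to 81182498, plus strand), stood at 308, 385 and 314 TPM. Ratios between genes and spreads within complexes are on the log2(TPM + 0.1) scale unless plain TPM is named, and the added 0.1 understates those of low genes. On that scale Eef2 was at 0.105 of Eef1a1 on average, between 0.0992 and 0.110 in the libraries. Eif5a (chromosome 11, 69916714 to 69921958, minus strand) encodes eIF5A, the factor that carries hypusine and relieves stalled ribosomes. It was measured at 301, 507 and 341 TPM. The paralog Eif5a2 was measured at 1.05, 1.95 and 1.15 TPM. Both genes of that pair were highest in replicate 2, and Eif5a TPM was 287, 260.1 and 296 times Eif5a2 TPM in replicates 1, 2 and 3.

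The subunits of eEF1B, the exchange factor that returns eEF1A to its GTP form, were far from equal. The catalytic subunit gene Eef1d was measured at 32.7, 58.6 and 39.8 TPM, and the other catalytic subunit gene, Eef1b2, at 244, 229 and 218 TPM. Eef1d lay below Eef1b2 in 3 of 3 libraries, at 0.185 of its level on average. The structural subunit gene Eef1g (chromosome 19, 8967041 to 8978479, plus strand) lay between them in every library at 75.6, 175.5 and 100.5 TPM. Eef1b2 was nearly flat and highest in replicate 1, whereas Eef1d and Eef1g were both highest in replicate 2. The spread between the highest and lowest subunit was 5.41-fold on average, between 3.90-fold and 7.43-fold. These subunit levels count all transcripts of a gene. On protein-coding transcripts alone, Eef1g had 72.2, 173.8 and 99.9 TPM and Eef1b2 had 111, 104 and 85.4 TPM, so Eef1g was the higher in replicates 2 and 3 and the order of these subunits depends on which transcripts are counted. Eef1e1, whose product joins the aminoacyl-tRNA synthetase complex, was low at 2.39, 6.45 and 3.40 TPM, again highest in replicate 2.

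Enzymes that modify elongation factors were the lowest role group together with the eIF4E-binding proteins, with medians of 7.48 and 6.14 TPM. Eef1akmt4, highest of the 6 and named as a lysine methyltransferase of eEF1A, stood at 25.9, 34.1 and 28.5 TPM. Its exons share 30.7% of their bases with the gene Gm49333 on the same strand. Eef1akmt1 stood at 11.9, 22.8 and 14.3 TPM and Eef1akmt2 at 11.3, 7.64 and 12.8 TPM. These 2 genes took opposite courses across the libraries, Eef1akmt1 being highest and Eef1akmt2 lowest in replicate 2. Eef2k, the kinase that inactivates eEF2, stood at only 0.29, 0.91 and 0.79 TPM, from 18, 51 and 51 counts. Eef1akmt3 had no counts in any library, which allows up to 0.0703 TPM (3 counts in the library where that is highest). Such floors cover counting error only.

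In start codon selection, Eif1 (chromosome 11, 100319885 to 100322096, plus strand), whose product keeps the scanning ribosome from stopping at poor start codons, stood at 380.3, 372 and 364 TPM. Its coefficient of variation over the libraries, 2.24%, was the lowest of the detected members. Its paralog Eif1b stood at 39.4, 53.0 and 44.4 TPM, so that Eif1 was 8.21-fold higher than Eif1b on average, between 7.01-fold and 9.63-fold. eIF1A is encoded by Eif1ax on chromosome X and by Eif1a on chromosome 18. Eif1ax was measured at 15.8, 20.3 and 15.4 TPM and Eif1a at 69.6, 62.8 and 55.4 TPM. In 3 of 3 libraries Eif1ax was thus lower than Eif1a, at 0.275 of its level, counting all transcripts. Coding transcripts held 44.6% of Eif1ax TPM and 100% of Eif1a TPM on average, so on those alone Eif1ax was lower still. Eif5, the GTPase activator of eIF2, stood at 60.4, 53.5 and 41.1 TPM. Eif5b, the GTPase for subunit joining, stood at 36.4, 30.1 and 28.2 TPM.

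The alpha and beta subunits of eIF2 stood at similar levels. Eif2s1, the alpha subunit that stress kinases phosphorylate, had 43.7, 41.6 and 33.3 TPM, and Eif2s2, the beta subunit, had 49.8, 35.1 and 34.8 TPM. Their log2 ratio was -0.002 ± 0.223 (SD, n = 3), and Eif2s1 was the higher in 1 of 3 libraries. The 5 subunits of eIF2B spanned a wide range. Eif2b2, the beta subunit, was highest in every library at 45.2, 50.8 and 55.5 TPM. Eif2b3, the gamma subunit, was lowest in every library at 0.64, 2.50 and 0.69 TPM, from 16, 81 and 30 counts. In plain TPM, Eif2b2 was 70.6, 20.3 and 80.4 times Eif2b3 in replicates 1, 2 and 3, counting all transcripts. Coding transcripts held 50.55% of Eif2b2 TPM on average, so on those alone the ratios were lower. Eif2b5, which holds the catalytic site, averaged 13.6 ± 3.80 TPM. For Eif2b1 and Eif2b4 the averages were 8.44 ± 2.60 and 6.28 ± 0.870 TPM (SD, n = 3).

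The eIF3 complex, the large scaffold that bridges the small subunit and eIF4G, spanned a narrow range of levels once its loosely held j subunit was set aside. All 14 genes were detected. Eif3h was highest in every library at 102, 140.2 and 124 TPM (chromosome 15, 51786558 to 51865523, minus strand). Without Eif3j1 and Eif3j2, the other 12 genes lay within 4.29-fold of each other on average, between 4.06-fold and 4.80-fold. Eif3g (31.3 TPM), Eif3l (31.6 TPM) and Eif3a (36.3 TPM) had the lowest means of these 12. With the j genes the spread was 38.9-fold, since Eif3j1 stood at 2.95, 4.73 and 2.94 TPM and Eif3j2 at 3.44, 4.59 and 2.02 TPM. The j genes are near copies and share reads: their expected counts were not whole numbers, and the deposited posterior SD was 4.20% of the Eif3j1 count and 10.7% of the Eif3j2 count. Their log2 ratio of 0.116 ± 0.373 (SD, n = 3) was not apart from 0, and the second, alignment-free quantification put it at -0.941. Eif3d shares 43.3% of its exonic bases with Gm17638 on the opposite strand. Whether counting used strand is not given in the sources used here.

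Within the eIF4 family a relative of the scaffold came first in level. Eif4g2 (ENSMUSG00000005610.17, chromosome 7, 111067750 to 111083030, minus strand) encodes the eIF4G relative, also called DAP5 or NAT1, that lacks the eIF4E binding site and serves cap-independent initiation. It stood at 801, 523 and 556 TPM and was the second most abundant member after Eef1a1. The cap-bound scaffold Eif4g1 stood at 69.2, 84.5 and 67.8 TPM. Eif4g2 was higher than Eif4g1 in 3 of 3 libraries, 8.36-fold on average and between 6.18-fold and 11.6-fold. Eif4g2 was highest in replicate 1 and Eif4g1 in replicate 2, and the ratio was largest in replicate 1.

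The annotated coding start of Eif4g2 also sets it apart from the other members. In the highest protein-coding transcript of each member with an annotated coding start at least 12 bases into the transcript, 61 of 62 started with ATG and 1, Eif4g2, with GTG. The start codons of the 3 eIF4G genes (GENCODE M21, mm10) are shown in capitals with 12 bases on either side. They lie at chr7:111081545-111081547 on the minus strand, chr16:20673902-20673904 on the plus strand and chr4:138082959-138082961 on the plus strand.
Eif4g2: caagccgccaaaGTGgagagtgcgatt
Eif4g1: gcaccaaatgaaATGaacaaagctccc
Eif4g3: gcccctcagacaATGaactcacaacct

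Eif4g3, the third scaffold gene, went against most members across the libraries. It was measured at 89.6, 44.7 and 93.8 TPM in replicates 1, 2 and 3. Replicate 2 was its lowest library. The log2 ratio of Eif4g1 to Eif4g3 was -0.372, 0.918 and -0.467 in the libraries, with a mean of 0.026 ± 0.774 (SD, n = 3). Without replicate 2 the mean turned to -0.42. Which of the cap-bound scaffolds was more abundant therefore differed between libraries, and neither was higher beyond the spread.

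Of the helicase genes, Eif4a1 (chromosome 11, 69666936 to 69672423, minus strand) was measured at 403, 491 and 409 TPM and its paralog Eif4a2 at 56.8, 56.6 and 52.1 TPM. Eif4a1 was 7.84-fold higher than Eif4a2 on average, between 7.09-fold and 8.67-fold, counting all transcripts. Coding transcripts held 92.5% of Eif4a1 TPM and 35.1% of Eif4a2 TPM on average, so on those alone the gap was wider. Eif4a3, the relative that sits in the exon junction complex, had 39.0, 55.2 and 35.4 TPM, and Eif4a1 exceeded it 10.2-fold. Both RNA-binding helpers of the helicase were expressed, Eif4h at 101 ± 19.5 TPM and Eif4b at 39.2 ± 4.50 TPM (SD, n = 3).

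Among the cap-binding proteins, Eif4e was measured at 62.3, 70.4 and 64.7 TPM and Eif4e2, which binds caps without recruiting eIF4G and is known as a repressor, at 78.6, 98.7 and 81.2 TPM. Eif4e lay below Eif4e2 in 3 of 3 libraries, at 0.767 of its level. The log2 ratio was -0.383 ± 0.091 (SD, n = 3), but in the second quantification it was -0.189 and no longer exceeded 2 SD. Eif4e3, another relative, had 6.74, 12.02 and 10.05 TPM, and Eif4e exceeded it 6.97-fold. Eif4e1b, known from oocytes, had no counts in any library in the gene tables, which allows up to 0.242 TPM. The second quantification gave it 0.487, 0.282 and 0.580 TPM, above that floor, so its level depended on the method.

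The eIF4E-binding proteins, which keep eIF4E from eIF4G, were low at the RNA level. Eif4ebp1 stood at 5.66, 7.39 and 4.57 TPM and Eif4ebp2 at 6.11, 7.28 and 5.80 TPM. Their log2 ratio of -0.141 ± 0.182 (SD, n = 3) was not apart from 0 when all transcripts were counted. The coding Eif4ebp1-201 alone had 3.27, 4.17 and 3.27 TPM, below Eif4ebp2, all of whose TPM was coding, in every library. Eif4ebp3 was listed at 0.75, 1.41 and 1.32 TPM, from 6.32, 15.2 and 19.5 expected counts. That value is uncertain, because 67.3% of the exonic bases of Eif4ebp3 also belong to AC115631.1 on the same strand and the posterior SD was 45.9% of its count. Summed, the 3 inhibitor genes had 12.5, 16.1 and 11.7 TPM, or 0.201, 0.229 and 0.181 of the TPM of Eif4e, a ratio chosen after the values were seen. That ratio counts all Eif4e transcripts, most of whose TPM was on short ones. The 4991-base Eif4e-201, which took most Eif4e counts, had 11.3, 17.8 and 13.8 TPM, close to the inhibitor sums. Eif4enif1, which carries eIF4E into the nucleus and into processing bodies, stood at 13.5, 16.1 and 15.1 TPM.

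Of the remaining initiation factors, Eif6, which holds the large subunit apart from the small one until it is mature, stood at 41.4, 77.7 and 53.5 TPM. Eif2d, which can release or reload tRNA on the small subunit, was the lowest of these at 7.48, 9.83 and 8.32 TPM. Eif2a and Eif1ad averaged 19.1 ± 1.35 and 10.2 ± 1.48 TPM (SD, n = 3).

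**Figure D2:**
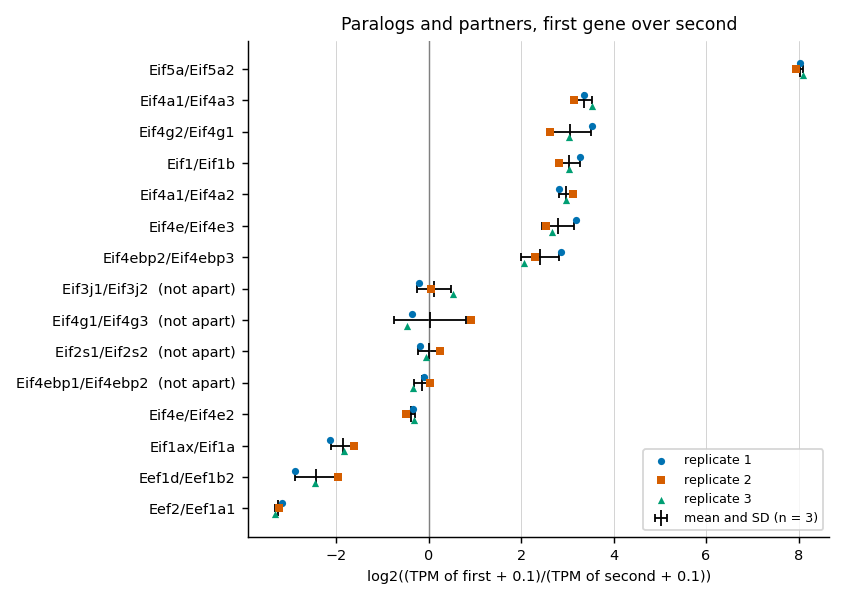
log2 ratio of the first over the second gene for 15 of the 16 pairs in each library, with the mean and SD (n = 3). Eef1a1/Eef1a2 is left out because Eef1a2 had at most 1 count in a library, and 4 pairs straddle 0.

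Across the 16 pairs of paralogs and partners, a pair was called apart when 3 of 3 libraries had the same sign and the mean log2 ratio exceeded 2 SD. By that rule 12 pairs were apart and 4 were not, namely Eif4g1/Eif4g3, Eif4ebp1/Eif4ebp2, Eif3j1/Eif3j2 and Eif2s1/Eif2s2. Pair ratios count all transcripts of a gene, and coding transcripts alone can differ, as in Eif4ebp1/Eif4ebp2. An exact two-sided sign-flip test of 3 libraries cannot give less than p = 0.25, so no p is attached to a pair.

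To ask which members differed between the 3 libraries beyond counting noise, rounded expected counts were set against library totals scaled by TMM, a normalization of library size, in a per-gene chi-square test (2 degrees of freedom). Of 59 members with a mean count of at least 10, 54 (91.5%) passed at a Benjamini-Hochberg adjusted p of 0.05, beside 70.9% of all 12414 genes tested. Counts bear on that share: of 3008 genes within 2-fold of the members' median count, 83.1% passed. The members' median range from highest to lowest library was 1.34-fold in scaled counts, beside 1.26-fold for the genes of like count and 1.36-fold for all genes tested, whose median count was lower (424 against 1277). A range of at least 1.5-fold together with the call, a fold chosen after the data were seen, was reached by 18 of 59 members (30.5%), beside 30.6% of all genes. With the count minimum raised to 100 it was reached by 18 of 56 members, beside 25.3% of genes. Without replicate 2 it was reached by 2 of 59 members, beside 9.98% of genes, and without replicate 1 by 9 of 59, beside 17.4%. Without replicate 3 it was reached by 18 of 59, beside 23.9%.

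The count of varying members depended most on replicate 2. Without it 28 of 59 members passed, beside 41.9% of all genes. Without replicate 1 the count was 45, beside 56.75% of genes, and without replicate 3 it was 51, beside 60.9%. In TPM, 42 of the 56 detected members were highest in replicate 2, beside 47.7% of detected protein-coding genes. Scaled counts gave 40 of 56 members (71.4%), beside 40.5% of genes, and the second quantification gave 49 of 56 (87.5%), beside 67.1%. For ribosomal protein genes the number highest in replicate 2 was 44 of 81 in TPM, 28 of 81 in scaled counts and 67 of 81 (82.7%) in the second quantification. In eIF3, 13 of 14 genes were highest in replicate 2 in TPM, with Eif3a as the exception, and so were all 4 other initiation genes and all 3 detected genes of the eIF4E-binding group. Neutrophil markers were also highest in that library, at 422 summed TPM, and their part in the result was not tested.

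The 11 members highest in replicate 1 and the 3 highest in replicate 3 ran against this course. Those highest in replicate 1 included Eif4g2, Eif1, Eif1a, Eif5 and Eif5b, so that 4 of the 6 start codon selection genes were among them. Eif4a2, Eif2s1, Eif2s2, Eif2b4, Eif3a and Eef1b2 made up the rest. Those highest in replicate 3 were Eif4g3, Eif2b2 and Eef1akmt2. In summed TPM the start codon selection genes gave 602, 592 and 548, the elongation genes 3764, 5017 and 4188, and eIF3 679.5, 917.5 and 746 in replicates 1, 2 and 3.

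**Figure D3:**
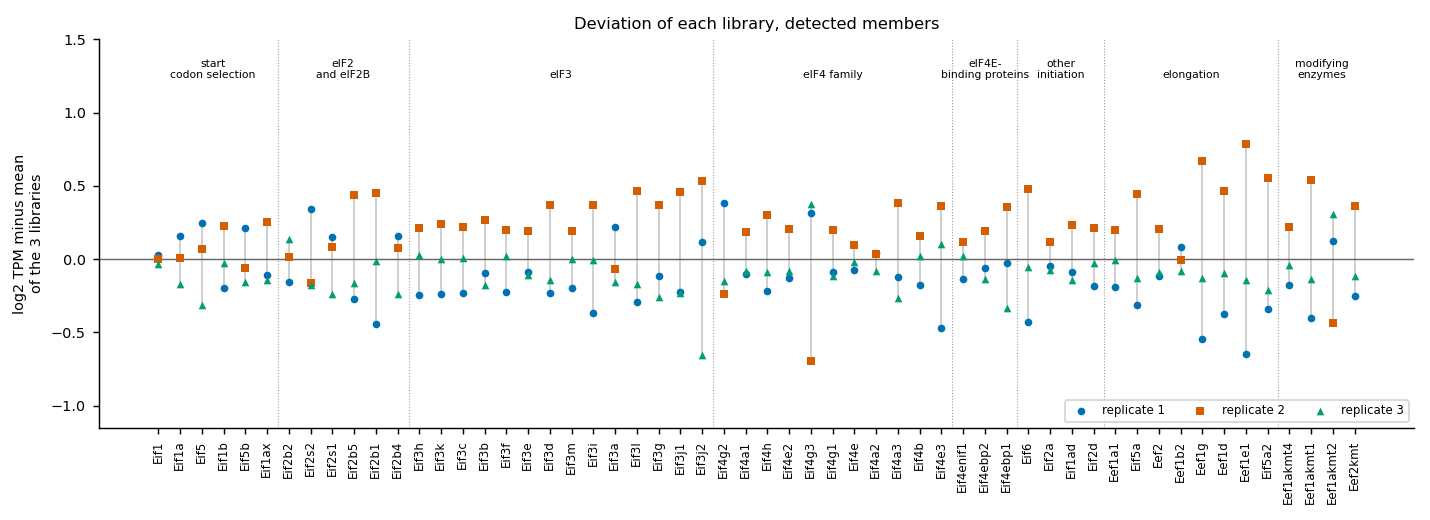
For each of the 56 detected members, the log2 TPM of each library minus the mean of the 3 libraries, in role order. Replicate 2 (squares) lies on top for 42 members, and at the bottom for Eif4g3, Eif4g2 and Eef1akmt2.

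By dispersion, the squared biological variation that edgeR estimated with an intercept only, the 10 most variable members were Eif2b3, Eef1e1, Eif4ebp3, Eef2k, Eif3j2, Eif4g3, Eif5a2, Eef1g, Eef1akmt1 and Eif2b1. Eif2b3 led with 0.256, and the median member had 0.0332, beside 0.0422 for all genes tested. Most of the 10 were among the lower members, yet Eef1g and Eif4g3 were abundant. Eef1g had a dispersion of 0.0715 and a 2.19-fold range in scaled counts. Eif4g3 had 0.0761 and a 2.11-fold range. Eif2b1 was measured at 6.02, 11.2 and 8.12 TPM. The 5 members tested that did not pass were Eif2b2, Eif2b4, Eif4enif1, Eef2k and Eif4ebp3. A miss does not show that their levels were equal.

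At the transcript level, the most abundant transcript of a gene was the same in 3 of 3 libraries for 55 of 56 detected members (98.2%), beside 87.3% of 9238 detected protein-coding genes. In the second quantification it was the same for 53 of 56 members. The exception among the 56 in the deposited TPM was Eif2b2, where Eif2b2-201 led in replicates 1 and 2 and Eif2b2-206 in replicate 3. Transcripts annotated as protein-coding held a median of 98.2% ± 0.999 of a member's TPM (SD, n = 3). The median over all detected protein-coding genes was 96.55%. At least 90% was coding in 39 of 56 members, beside 67.3% of all such genes, and 9 members (16.1%) averaged under 75%, beside 17.2%. In 3 members the transcript that led in all libraries was not coding, namely Eif4a2, Eef1b2 and Eif1ax. For Eif4a2 this depended on the method: in replicate 1 of the second quantification the coding Eif4a2-202 had 27.1% and the non-coding Eif4a2-210 had 23.25%.

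Eif4a2 had the lowest coding share of the members. Protein-coding transcripts held 32.5%, 37.1% and 35.7% of its TPM, and transcripts annotated as subject to nonsense-mediated decay, the pathway that destroys messages with an early stop, held 46.4% ± 4.14 (SD, n = 3). The leading transcript, Eif4a2-210, is of the decay class and held 30.4%, 36.3% and 23.8%. It lacks a 140-base exon at chr16:23109120-23109259 (plus strand, mm10), whose length is not a multiple of 3. The skip is followed by an annotated stop codon in the next exon, in capitals, within chr16:23109985-23110076. Both stretches are printed because they hold the skipped exon and the annotated stop of the leading transcript, which differs from coding transcripts such as the 2708-base Eif4a2-202 elsewhere too.
Eif4a2 skipped exon: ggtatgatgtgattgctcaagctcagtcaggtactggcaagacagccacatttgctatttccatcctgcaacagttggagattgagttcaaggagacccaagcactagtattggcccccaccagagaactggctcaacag
Eif4a2 start of next exon: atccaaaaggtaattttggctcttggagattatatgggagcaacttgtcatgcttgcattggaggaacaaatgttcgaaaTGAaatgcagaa

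Over all annotated Eif4a2 transcripts that join the flanking exon edges, those with the 140-base exon held 56.2%, 52.4% and 54.2% of TPM, and those without it held the rest, 45.7% on average. This is not the coding share: Eif4a2-204, among the 6 transcripts with the exon, is of the decay class, and transcripts without both flanking edges are not in the base. In the second quantification the share with the exon was 64.8% ± 2.13 (SD, n = 3), so the size of the skipped share depended on the method. Eif4a1, its abundant paralog, kept 92.5% ± 1.54 of TPM on coding transcripts.

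In Eif4h, which stimulates the helicase, the choice was between coding forms. Eif4h-201 held 55.4% ± 2.28 of TPM and Eif4h-205, which carries an additional exon of 60 bases, 34.0% ± 2.52 (SD, n = 3). Of the 2 forms together, the share with the exon was 38.2%, 40.6% and 35.3%, and the second quantification gave 38.0% ± 4.50. The exon, a multiple of 3 in length, lies at chr5:134624441-134624500 on the minus strand.
Eif4h exon: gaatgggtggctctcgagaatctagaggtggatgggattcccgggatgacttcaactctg

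Eif4g2 also had a coding exon in play. Eif4g2-206 held 70.3% ± 0.569 of its TPM, and Eif4g2-213 holds a further 114-base exon at chr7:111076280-111076393 on the minus strand. Between these forms the share with the exon was 14.1%, 17.7% and 17.4%, and 11.9% ± 1.54 in the second quantification (SD, n = 3).
Eif4g2 exon: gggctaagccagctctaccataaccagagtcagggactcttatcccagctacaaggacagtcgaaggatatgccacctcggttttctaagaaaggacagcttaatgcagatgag

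**Figure D4:**
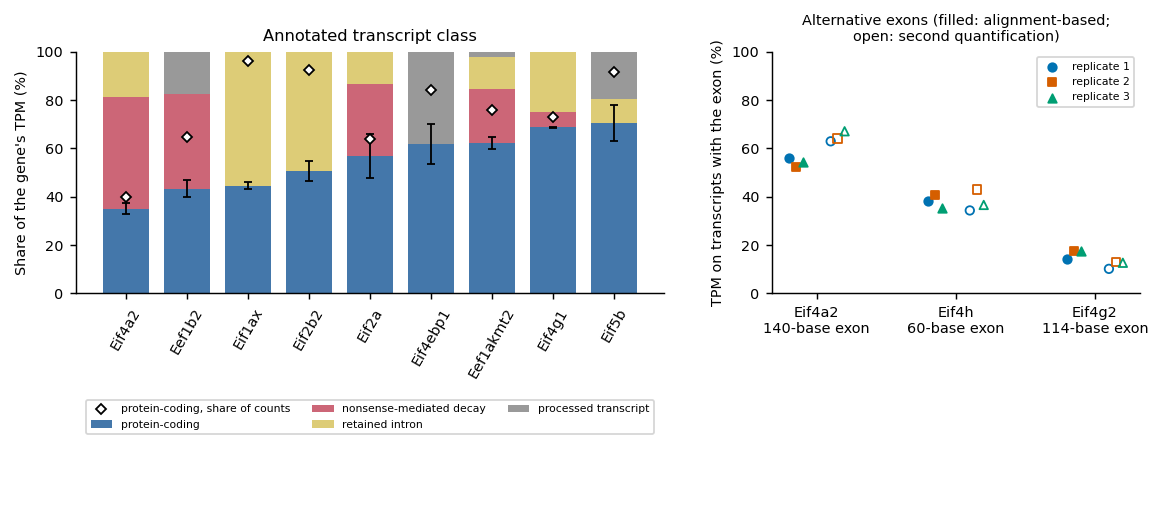
Left, mean share of TPM on each annotated transcript class for the 9 members under 75% coding (bars, SD of the coding share, n = 3), with the coding share of counts as diamonds. Right, share of TPM on transcripts with each alternative exon in each library, where Eif4a2 lies between 52.4% and 67.1%.

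Eef1b2 and Eif1ax show how class shares depend on the unit. In Eef1b2 the decay transcript Eef1b2-205 (691 bases) led with 38.2% ± 3.35 of TPM, and coding transcripts held 43.4% ± 3.65 of TPM and 64.6% of counts (SD, n = 3). Every base of Eef1b2-205 also lies in other transcripts of the gene. In Eif1ax the retained-intron transcript Eif1ax-202, a fragment of 416 bases, held 55.4% ± 1.59 of TPM but only 4.17%, 3.61% and 3.33% of counts, while the coding Eif1ax-201 has 5172 bases. TPM divides counts by effective length, so a short transcript weighs more in TPM than in counts. Of the fragment, 94 bases are found in no other transcript of the gene, at chrX:159376465-159376558 on the plus strand.
Eif1ax intronic bases: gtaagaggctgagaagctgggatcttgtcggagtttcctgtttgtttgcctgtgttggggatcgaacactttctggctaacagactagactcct

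The same holds for the exception Eif2b2, whose Eif2b2-206 is annotated as a retained intron of 338 bases. It held 47.5% ± 3.80 of TPM (SD, n = 3) and between 5.01% and 6.73% of counts, and coding transcripts held 92.6% of Eif2b2 counts. All but 7 of its bases are in Eif2b2-201. For Eif4e, all of whose TPM was coding, the 729-base Eif4e-205 led with 42.1% ± 2.65 of TPM, while the 4991-base Eif4e-201 took between 67.2% and 75.8% of counts. Coding shares of the other members under 75% were 56.8% ± 9.03 in Eif2a, 61.9% ± 8.35 in Eif4ebp1, 62.2% ± 2.43 in Eef1akmt2, 68.7% ± 0.181 in Eif4g1 and 70.5% ± 7.43 in Eif5b (SD, n = 3). In Eif4g1, retained-intron transcripts held 25.1% ± 3.16 of TPM. Their main one, Eif4g1-210, held 17.1%, 25.7% and 22.6%, but 5.10%, 8.97% and 5.15% in the second quantification. The coding Eif5b-201 went from 76.8%, 62.3% and 72.5% to 30.3%, 37.6% and 41.8% there. The coding Eif2a-201 went from 64.1%, 46.7% and 59.5% to 68.3%, 95.95% and 87.2%. The coding Eif4ebp1-201 moved less, from 57.7%, 56.5% and 71.5% to 55.9%, 54.3% and 63.3%. Several of these shares thus depended on the method.

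Many messages for translation factors start with a terminal oligopyrimidine tract, a C followed by further C or T, through which mTOR controls their translation. RefSeq promoter entries (GRCm38.p6) were found for 46 members. On the strand of the gene, a C at the annotated first base followed by 4 bases that are each C or T was present in 1 of the members' 60 entries (1.67%), that of Eif3f, beside 2.51% of 32851 entries of the mouse table. When the run could start up to 5 bases to either side, 10 of 60 member entries (16.7%), from 9 members, had one, beside 18.3% of entries. These counts describe letters at annotated starts. Where transcription started was not measured, so they do not give the share of messages with such a tract. The annotated starts are shown with 40 bases before and 25 from the first base, at chr7:108934375-108934439 (plus strand) and chr9:78481700-78481764 (minus strand). For Eif3f, capitals mark the run from the annotated first base on, and the bases just before it, ctct, are also C or T. For Eef1a1, capitals mark the whole run. In Eef1a1 the run begins 5 bases before the annotated first base, and whether any of it is part of the message was not measured.
Eif3f: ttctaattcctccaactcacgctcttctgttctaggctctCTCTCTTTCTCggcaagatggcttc
Eef1a1: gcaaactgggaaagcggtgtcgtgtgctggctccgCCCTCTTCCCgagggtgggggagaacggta

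Regulators that act on these factors were taken as a list of 16 genes, of which 15 were detected, with a median of 36.8 TPM. In the test of variation 13 of 16 passed, beside 70.9% of all genes tested. A range of at least 1.5-fold was reached by 2 of them, beside 30.6% of all genes. The highest was Pabpc1, the poly(A)-binding protein that contacts eIF4G, at 449, 472 and 538 TPM. The lowest was Pdcd4, an inhibitor of eIF4A, at 0.35, 0.54 and 0.40 TPM.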

How the data were processed

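Polyadenylated RNA of 3 libraries was measured by sequencing. Quantification used mm10 and GENCODE M21, per the deposited readme, and the aligner is not given in the sources used here. Gene and transcript tables, per the file headers, hold expected counts assigned by a model, unscaled between libraries, deposited TPM, and posterior means and SDs. The deposited percent values give each transcript's share of its gene's TPM. A second quantification of transcripts, deposited as estimated counts with TPM, was summed per gene. Entries without a gene identifier (26345, 0.0682% to 0.127% of counts) were left out.

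Members, lists and pairs were chosen with earlier results of these data known. The rule for named genes allowed every member, with values in each library for both genes of each pair, the highest and lowest of each role group, the 10 largest dispersions and every member below 1 TPM in a library. Other lists are given by counts with their highest and lowest gene. With 1 group there is no contrast. Replicates are separate biosamples of 1 donor identifier, so spread is between biosamples. No pair of libraries agreed within sampling noise (chi-square per degree of freedom 92.6 to 153.6). Expected counts were rounded for the chi-square test. It was tried on simulated counts that held counting noise only, so its behaviour under the wider spread of these libraries was not tested. The p-values of the chi-square test measure departure from counting noise only. TMM factors and dispersions came from edgeR 4.0.16 and size factors of an alternative from DESeq2 1.42.0 (R 4.3.3, Python 3.11.15). Of the members, 22 had expected counts that were not whole (tolerance 0.005) in some library, and 26 overlap exons of another gene. Sequences were read from GENCODE M21 transcripts and RefSeq promoters. Alternatives were other TPM and count minimums, pseudocounts, scalings, the second quantification and leaving out each library.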

Additional observations from a re-analysis of the deposited data

How the results depend on the processing

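Most results kept their value under the alternatives. Restricted to members detected in every library, the difference from ribosomal protein genes was -3.46 and that from detected protein-coding genes 1.58. In the second quantification the difference from ribosomal protein genes was -3.49 and the coding share 96.985%. With 1.5-fold also required, a condition chosen after the data were seen, 18 members varied, beside 30.6% of genes. Varying members numbered 28 to 51 when a library was left out in turn, beside 41.9% to 60.9% of genes. Runs of C and T within 5 bases of the annotated start raised the count of members with a run to 9. Among pairs, Eif4g1/Eif4g3 ranged from -0.42 to 0.273 when a library was left out, Eif3j1/Eif3j2 to -0.941 in the second quantification, and Eif4e/Eif4e2 lost its call there at -0.189. The cause was not tested. No paired analysis was possible because the series holds 1 group. Precision is limited by 3 libraries of unequal depth and, for the 6 members below 1 TPM in a library, by few counts.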

Other observations

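Factors that end translation and free the ribosome were also expressed. Of 6 release and recycling genes, 5 were detected and 3 of 5 tested varied between libraries, beside 70.9% of all genes tested. None varied by 1.5-fold or more, beside 30.6% of all genes. Etf1, which reads stop codons, was highest at 55.3 ± 1.41 TPM (SD, n = 3). Gspt2, a paralog of its partner GTPase gene Gspt1, was lowest at 0.18 ± 0.104 TPM, while Gspt1 had 52.8 ± 13.8 TPM.

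The mitochondrial translation factors had a median of 10.2 TPM. All 8 were detected, and 5 of 8 varied between libraries, beside 70.9% of all genes tested. Of these, 2 varied by at least 1.5-fold, beside 30.6% of all genes. Tufm, the mitochondrial counterpart of eEF1A, was highest at 17.99, 29.2 and 20.2 TPM. Mtrf1, a release factor relative, was lowest at 1.53, 1.63 and 2.01 TPM. As in the cytosolic set, most were highest in replicate 2 (6 of 8), beside 47.7% of detected protein-coding genes. That library had 422 summed TPM of neutrophil markers, whose part in this was not tested.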
